A study of Danio rerio with 2 samples.

Results

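Of 50038 zebrafish transcripts in the deposited table, 144 were abundant in fertilised eggs and 2 to 8 times higher at the vegetal pole than at the animal pole. They were chosen by their values in the same libraries described here. A member had a mean level over both libraries of at least 64 RPKM (reads per kilobase of a transcript, relative to all reads of the library) and a vegetal over animal ratio of at least 2 and below 8. The level and the ratio are therefore a description of the choice and carry no test. The vegetal pole explant and the animal pole explant came from fertilised eggs of Danio rerio, strain AB, at 0 to 20 min after fertilisation, and each was sequenced as 1 library of poly A enriched mRNA. No treatment or genotype other than the strain is given for either explant, and the number of eggs behind each is not stated. The table counted 17685736 reads in the vegetal library and 16533617 in the animal library. With 1 library per pole no difference has a replicate check, and intervals below are 95% exact (Clopper-Pearson) intervals that cover counting error only.

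The animal-vegetal axis of the fish egg is laid down in the oocyte, where some RNAs are anchored at the vegetal cortex and others move to the animal side. After fertilisation, cytoplasm streams to the animal pole and forms the blastodisc, from which the embryo develops, while the yolk remains on the vegetal side. The embryo has not yet begun to transcribe its own genes at this time, and the RNA of either pole is maternal. Vegetally held maternal RNAs are known for their part in specifying the dorsal side and the germ line in zebrafish, and the title of the study concerns one such RNA, vrtn. The rows carry transcript identifiers without gene names, except 2, so most members are described by identifier, length, level and coverage, with no role assigned. None of the 50038 identifiers matched the gene name tables used here (0 matches), so the gene lists drawn up for germ plasm, glycolysis, cytoskeleton, ribosomal proteins and other groups could not be counted, and no sequence is shown.

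gapdh was the 1 member with a name in the table. It encodes glyceraldehyde-3-phosphate dehydrogenase, an enzyme of glycolysis whose transcript is often used as a reference for expression levels. Its transcript, ENSDART00000063800 (1331 nt), had 106 RPKM from 2502 reads in the vegetal library and 46.1 RPKM from 1014 reads in the animal library. The ratio was 2.31 (interval 2.14 to 2.48), in the lower part of the range of the members, and it ranked 1111 by RPKM in the vegetal library and 2478 in the animal library. Reads covered 97% of it in the vegetal library and 90% in the animal library. The other named transcript, beta actin1 (ENSDART00000054987, 1788 nt), had 80.1 RPKM in the vegetal library and 29.6 RPKM in the animal library, a ratio of 2.71. Its mean of 54.8 RPKM was below 64, so it was no member.

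By the rule the members stood higher in the order of the vegetal library. Of the 144, 90 were under 64 RPKM in the animal library and passed that limit through their vegetal level. Their levels ran from 86.7 to 3443 RPKM in the vegetal library, with a median of 171, and from 23.9 to 524 RPKM in the animal library, with a median of 51.3. By rank among all transcripts the median member was at 648 in the vegetal library and at 2277 in the animal library. Among the 100 transcripts with the highest RPKM were 5 members in the vegetal library and 0 in the animal library, where the first member had rank 145. Among the first 500 were 48 members in the vegetal library and 2 in the animal library. The rule set the direction of these differences in rank, so they describe the choice. RPKM is a share of a library, so more of these RNAs in the vegetal explant and less of all other RNA there cannot be told apart.

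The most abundant member, ENSDART00000037750 (1202 nt), had 3443 RPKM from 73200 reads in the vegetal library and 524 RPKM from 10413 reads in the animal library. Its ratio was 6.57 (6.44 to 6.71), and it was covered over 100% of its length at both poles. It ranked 15 in the vegetal library, and it alone held 7.35% of the members' vegetal reads and 3.77% of their animal reads. No other member reached 2000 RPKM in either library. ENSDART00000073964 (2778 nt) had 1095 RPKM from 53792 reads in the vegetal library and 142 RPKM from 6537 reads in the animal library, a ratio of 7.69 (7.50 to 7.89). ENSDART00000123767 (2199 nt) had 854 RPKM in the vegetal library and 108 RPKM in the animal library, a ratio of 7.89 (7.63 to 8.15) and the highest of the 144. These 3 transcripts joined a high level to a ratio near the upper edge of the range.

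Others among the 8 most abundant members had smaller ratios, with 187 to 239 RPKM in the animal library, below the 524 RPKM of ENSDART00000037750 there. ENSDART00000066380 (1873 nt) had 859 RPKM in the vegetal library and 187 RPKM in the animal library, a ratio of 4.60 (4.48 to 4.74). ENSDART00000010997 (2501 nt) had 831 RPKM in the vegetal library and 239 RPKM in the animal library, a ratio of 3.48 (3.40 to 3.55). It was, with ENSDART00000037750, 1 of the 2 members inside the first 500 ranks of the animal library, at rank 434. ENSDART00000114137 (1044 nt) had 592 RPKM in the vegetal library and 198 RPKM in the animal library, a ratio of 2.99 (2.88 to 3.11). ENSDART00000013497 (2600 nt) had 510 RPKM in the vegetal and 208 RPKM in the animal library, and ENSDART00000009790 (2355 nt) had 499 RPKM in the vegetal and 211 RPKM in the animal library. The ratios of this last pair, 2.45 (2.39 to 2.51) and 2.36 (2.30 to 2.42), had overlapping counting intervals.

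**Figure D1:**
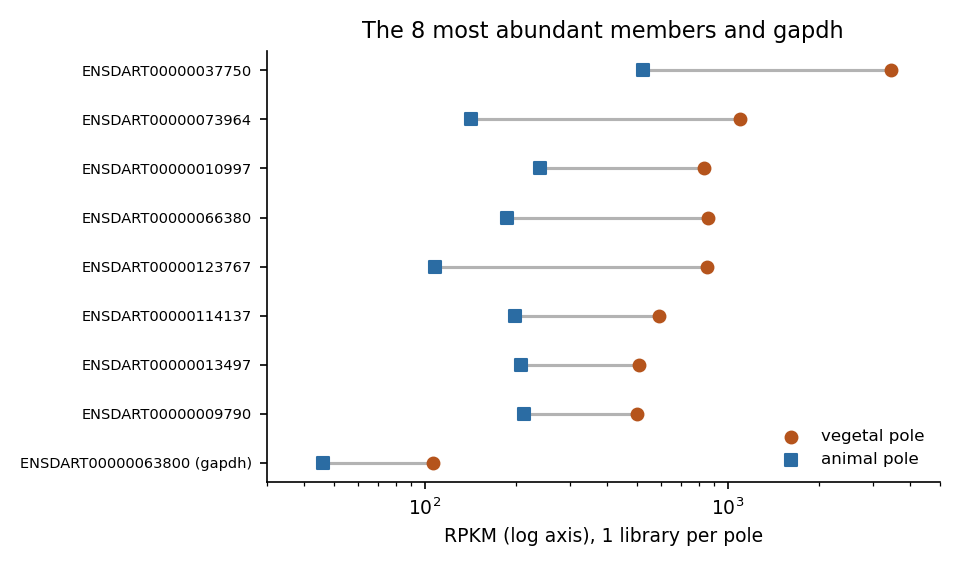
Level in RPKM (log axis) of the 8 members with the highest mean and of gapdh, as a circle for the vegetal pole library and a square for the animal pole library, with 1 library per pole and no error bars. ENSDART00000037750 stands apart at 3443 RPKM in the vegetal library, and the widest gap belongs to ENSDART00000123767, at 854 RPKM in the vegetal and 108 RPKM in the animal library.

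Together the 144 members held 5.63% of the vegetal reads (995701 reads, interval 5.62 to 5.64%) and 1.67% of the animal reads (276048 reads, interval 1.66 to 1.68%). The 10 most counted members supplied 35.3% of the members' vegetal reads, and the 10 most counted in the animal library 29.9% of their animal reads. Without ENSDART00000037750 the other members held 5.22% of all vegetal reads and 1.61% of all animal reads, its own reads still counted in each total. By the rule each member had the larger share in the vegetal library, so leaving 1 out could not change the direction. Per length, the members made up 4.88% of the summed RPKM of the vegetal library and 1.498% of that of the animal library.

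Small ratios were the most frequent among the members. The median ratio was 2.80, on the log2 scale 1.48, and 81 of the 144 (56.2%) had a ratio under 3. Between 2 and 2.5 there were 51 members, between 2.5 and 3 there were 30, between 3 and 4 there were 31, between 4 and 5 there were 15, between 5 and 6 there were 7, and from 6 up to 8 there were 10. The 10 members with a ratio from 6 up had a median of 350 RPKM in the vegetal library and 46.8 RPKM in the animal library, whereas the 51 with a ratio under 2.5 had medians of 137 RPKM in the vegetal and 65.6 RPKM in the animal library. Across the 144, Spearman's rho of the mean level with the log2 ratio was 0.186, a description over transcripts that share both libraries. For the 127 abundant transcripts 2 to 8 times higher in the animal library it was -0.160. The rule used both the level and the ratio, so these medians and correlations are shaped by the choice.

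Besides ENSDART00000073964 and ENSDART00000123767, the 6 largest ratios belonged to 4 transcripts of very unlike length. ENSDART00000127488, the longest member at 8108 nt, had 238 RPKM from 34143 reads in the vegetal library and 31.7 RPKM from 4244 reads in the animal library, a ratio of 7.52 (7.28 to 7.77). ENSDART00000101051 (1427 nt) had 531 RPKM in the vegetal library and 71.6 RPKM in the animal library, a ratio of 7.42 (7.05 to 7.81). ENSDART00000142903 (625 nt) had 301 RPKM in the vegetal library and 38.2 RPKM in the animal library, and its ratio of 7.87 had an interval (7.09 to 8.75) that ran past 8. ENSDART00000014385 (849 nt) had 398 RPKM in the vegetal library and 55.4 RPKM in the animal library, a ratio of 7.20 (6.68 to 7.76).

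At the lower end of the range ENSDART00000056642 (1625 nt) had 313 RPKM in the vegetal library and 156 RPKM in the animal library, a ratio of 2.004 (1.93 to 2.08). ENSDART00000143461 (519 nt) had 86.7 RPKM in the vegetal and 43.2 RPKM in the animal library, a ratio of 2.01 (1.77 to 2.27), and its mean of 65.0 RPKM was also the lowest of the members. ENSDART00000025326 (3578 nt) had 298 RPKM in the vegetal library and 148 RPKM in the animal library, also a ratio of 2.01 (1.96 to 2.06), and ENSDART00000041960 (1720 nt) had 134 RPKM in the vegetal and 66.6 RPKM in the animal library, a ratio of 2.02 (1.91 to 2.13). The intervals of these 4 reached below 2. In all, 119 members had a counting interval wholly between 2 and 8, 22 had one reaching below 2, and 3 had one reaching 8 or more.

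Transcripts just outside the limits had values close to those just inside. Below the ratio of 2 were ENSDART00000125200 at 1.9985, ENSDART00000021240 at 1.9981 and ENSDART00000013454 at 1.988. From 8 up the nearest were ENSDART00000137193 at 8.44, ENSDART00000100692 at 8.45 and ENSDART00000078499 at 8.51. Just inside the level were ENSDART00000143461 at a mean of 65.0 RPKM, ENSDART00000024450 at 65.1 RPKM and ENSDART00000078156 at 65.3 RPKM. Just outside it were ENSDART00000073596 at 63.9 RPKM, ENSDART00000137906 at 63.5 RPKM and ENSDART00000113165 at 63.1 RPKM.

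Set among abundant transcripts, the members were 144 of the 1917 rows with a mean of at least 64 RPKM, or 7.51%. In the opposite direction 127 of the 1917, or 6.62%, were 2 to 8 times higher in the animal library, and 1588 were under 2-fold apart. Ratios of 8 or more were found for 35 transcripts towards the vegetal pole and for 23 towards the animal pole. The rule used these ratios, so the counts describe the size of each group. Members made up 8.50% of the 1012 transcripts with a mean of 64 to 128 RPKM and 8.40% of the 524 with 128 to 256 RPKM. They made up 4.20% of the 238 with 256 to 512 RPKM, and above this 4 members were found among 143 transcripts. These were 3.16% of the 95 with 512 to 1024 RPKM and 2.08% of the 48 from 1024 RPKM up. In the same classes and order, transcripts 2 to 8 times higher in the animal library made up 6.52%, 8.21%, 2.94%, 10.5% and 2.08%.

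**Figure D2:**
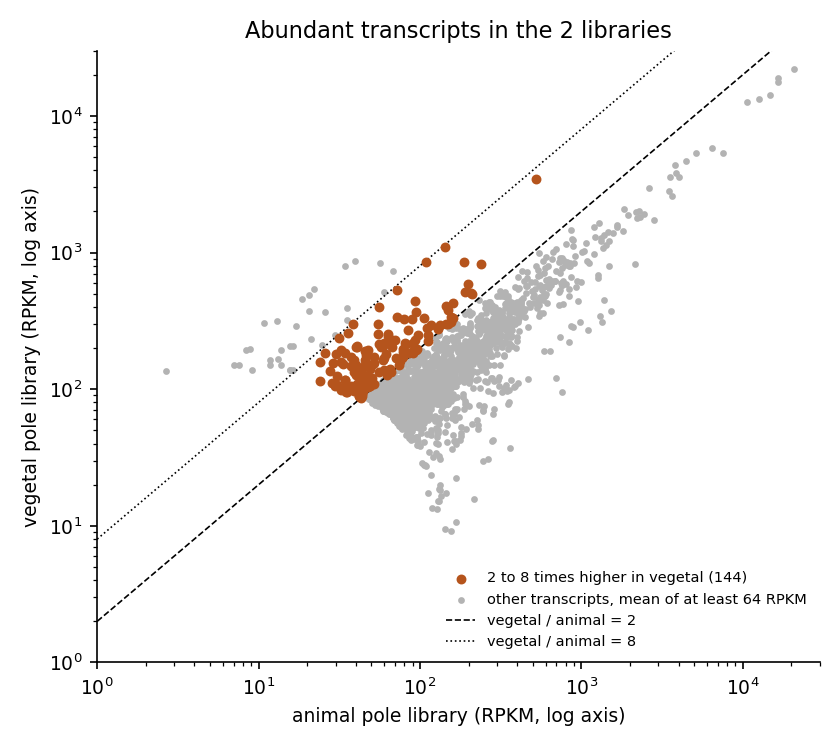
Level in the vegetal pole library against level in the animal pole library, in RPKM on log axes, for 1906 of the 1917 transcripts with a mean of at least 64 RPKM (11 with 1 RPKM or less in a library are not drawn). The 144 members lie, as the rule sets, between the dashed line at a ratio of 2 and the dotted line at 8, with most of them closer to 2, and ENSDART00000037750 stands alone above them at 3443 RPKM in the vegetal library.

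Length cancels in the ratio, and the members' median length lay between that of transcripts under 2-fold apart and that of the 8-fold vegetal-higher ones. The members had a median length of 1335.5 nt (quartiles 810 and 2210 nt), against 1652 nt (920 and 2562 nt) for the 127 transcripts 2 to 8 times higher in the animal library and 1235 nt (785 and 1981 nt) for the 1588 under 2-fold apart. For the 35 transcripts 8 times or more higher in the vegetal library it was 1459 nt (854.5 and 2335 nt). Within the range of 2 to 8 times, the shares differed between the directions at the 2 ends of the length range. These classes were tried after seeing the data. Of the 120 abundant transcripts shorter than 500 nt, 16 (13.3%) were members and 2 (1.67%) were 2 to 8 times higher in the animal library, beside 7.51% and 6.62% of all 1917. Of the 182 abundant transcripts of 3000 nt and over, 11 (6.04%) were members and 22 (12.09%) were 2 to 8 times higher in the animal library. In the classes between, the vegetal-higher and animal-higher shares were closer. They were 5.94% and 5.48% from 500 to 1000 nt, 7.17% and 5.92% from 1000 to 2000 nt, and 10.1% and 9.18% from 2000 to 3000 nt. As shares of each group, 11.1% of the 144 members and 1.57% of the 127 were under 500 nt, and 7.64% and 17.3% were of 3000 nt and over. Beyond 8-fold, 1 of the 35 transcripts higher in the vegetal library (2.86%) was under 500 nt and 6 (17.1%) were of 3000 nt and over. Of the 23 higher in the animal library, 0 were under 500 nt and 5 (21.7%) were of 3000 nt and over. These shares carry no test, since transcripts are not replicates of a pole, and isoforms of 1 gene may count more than once.

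The shares under 500 nt and from 3000 nt up moved with the level from which a transcript counted as abundant. The order of the directions stayed the same in both classes. At a minimum of 32 RPKM, 26 of 215 transcripts under 500 nt (12.09%) were 2 to 8 times higher in the vegetal library and 10 (4.65%) in the animal library. At a minimum of 100 RPKM these shares were 15.1% and 2.74% of 73. The shares of all transcripts of 500 nt and over moved too. They were 9.92% vegetal-higher and 6.85% animal-higher of 3256 at 32 RPKM. At 64 RPKM they were 7.12% and 6.96% of 1797, and at 100 RPKM 6.65% and 7.19% of 1113. The vegetal-higher share under 500 nt was thus closest to that of the longer transcripts at 32 RPKM. Among transcripts of 3000 nt and over the shares at 32 RPKM were 8.17% vegetal-higher and 10.3% animal-higher of 416. At 100 RPKM they were 11.5% and 13.8% of 87, so most of the gap seen at 64 RPKM was absent at both other minimums.

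**Figure D3:**
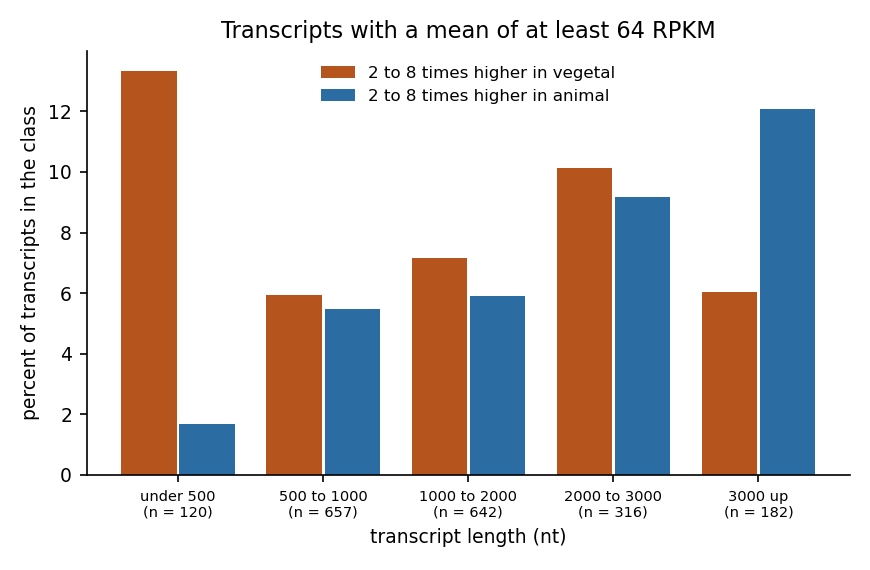
Percent of the transcripts with a mean of at least 64 RPKM, in 5 classes of length in nt, that were 2 to 8 times higher in the vegetal library (left bar of each pair) or in the animal library (right bar), with the number of transcripts under each class. The vegetal bar is the taller under 500 nt, at 13.3% against 1.67%, and the animal bar is the taller from 3000 nt up, where the vegetal bar is at 6.04% and the animal bar at 12.09%. In the classes between, the bars of each pair are closer in height.

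The 16 members shorter than 500 nt had modest ratios and levels like those of the rest. Their levels ran from 98.6 to 430 RPKM in the vegetal library and from 38.9 to 161 RPKM in the animal library, and their ratios from 2.02 to 4.65 with a median of 2.72, against 2.82 for the 128 longer members. The shortest, ENSDART00000129214 (252 nt), was also the highest of the 16, with 430 RPKM from 1917 reads in the vegetal library and 161 RPKM from 670 reads in the animal library, a ratio of 2.67 (2.45 to 2.93). ENSDART00000055186 (264 nt) had the fewest reads of the 144, at 466 in the vegetal library and 170 in the animal library, which gave 99.8 RPKM in the vegetal library, 38.9 RPKM in the animal library and a ratio of 2.56 (2.15 to 3.07). ENSDART00000053568 and ENSDART00000126215 had the same length of 273 nt and were covered over 100% at both poles. The first had 177 RPKM in the vegetal and 46.1 RPKM in the animal library (ratio 3.83), and the second had 151 RPKM in the vegetal and 45.9 RPKM in the animal library (ratio 3.30). Whether these are copies of each other is not given in the files, and their counting intervals, 3.29 to 4.48 and 2.82 to 3.87, overlapped.

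Among the 16 short members the largest ratios belonged to ENSDART00000110112 and ENSDART00000016187. ENSDART00000110112 (489 nt) had 336 RPKM in the vegetal library and 72.2 RPKM in the animal library, a ratio of 4.65 (4.25 to 5.09). ENSDART00000016187 (291 nt) had 327 RPKM in the vegetal library and 79.2 RPKM in the animal library, a ratio of 4.13 (3.69 to 4.62).

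At the other end of the length range, the 11 members of 3000 nt and over had ratios of 2.01 to 7.52 with a median of 3.61, and were carried by 11897 to 34143 vegetal reads and 1760 to 9357 animal reads each. After ENSDART00000127488, the longest were ENSDART00000105518 and ENSDART00000102148. ENSDART00000105518 (4445 nt) had 157 RPKM in the vegetal library and 23.9 RPKM in the animal library, a ratio of 6.55 (6.23 to 6.89). ENSDART00000102148 (4364 nt) had 193 RPKM in the vegetal and 94.9 RPKM in the animal library, a ratio of 2.04 (1.98 to 2.096). The most counted long member after ENSDART00000127488 was ENSDART00000083263 (3783 nt), with 378 RPKM from 25268 reads in the vegetal library and 150 RPKM from 9357 reads in the animal library, a ratio of 2.52 (2.47 to 2.59). Across all 144, length and log2 ratio had a Spearman's rho of 0.0989, again a description over transcripts of the same libraries.

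Reads lay along most of the length of most members, at both poles. The deposited coverage, the percentage of a transcript's length with a read, had a median of 98% in the vegetal library (quartiles 94 and 100%) and 94% in the animal library (87 and 97%). Coverage was at least 90% in both libraries for 93 of the 144 (64.6%), beside 72.0% of the 1588 abundant transcripts under 2-fold apart. It was 100% for 39 members in the vegetal library and for 13 in the animal library. Coverage was higher in the vegetal library for 107 members (74.3%), higher in the animal library for 14 and equal for 23. Over all 1917 abundant transcripts it was higher in the vegetal library for 43.8%, and for 97.1% of the 35 that were 8 times or more higher there. Of the 1588 under 2-fold apart, it was higher in the vegetal library for 670, higher in the animal library for 439 and equal for 479. Coverage thus leaned to the vegetal library among transcripts with little difference in level too. Of the 127 transcripts 2 to 8 times higher in the animal library, coverage was higher in the animal library for 70, higher in the vegetal library for 26 and equal for 31. By the rule each member had a share of reads at least 2 times as large in the vegetal library. Coverage can grow with reads, so the gap was not taken as independent of the choice. How much of it follows from the number of reads, or from the lean among transcripts under 2-fold apart, was not tested.

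**Figure D4:**
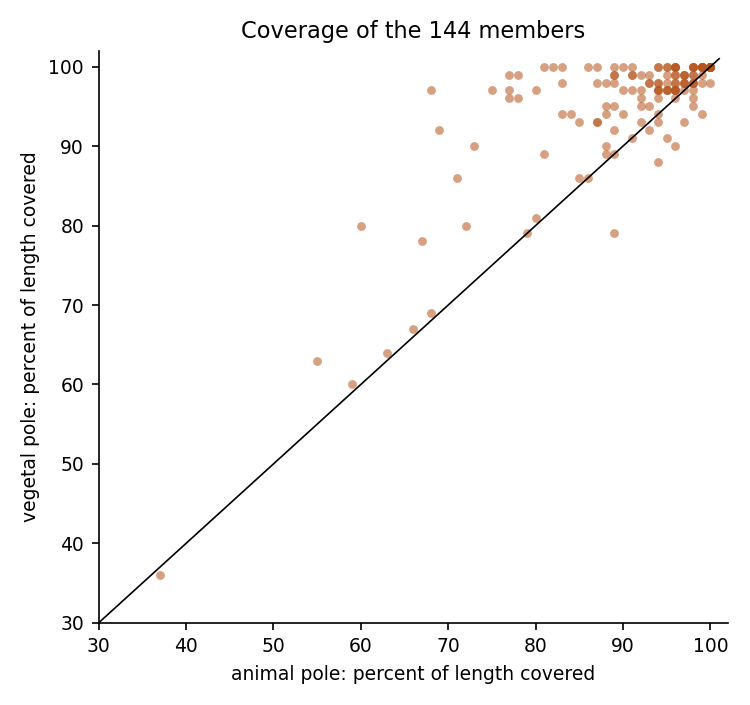
Percent of transcript length covered by reads in the vegetal pole library against that in the animal pole library, 1 point per member, with the line of equal coverage. Of the 144 points, 107 lie above the line, and the lowest, ENSDART00000027598, has 36% in the vegetal library and 37% in the animal library.

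Some members had reads over a limited share of the transcript at both poles. The coverage value gives the share of the length and not which bases were covered. ENSDART00000027598 (1496 nt) had the lowest coverage, 36% in the vegetal library from 4549 reads and 37% in the animal library from 1282 reads, at 172 RPKM in the vegetal and 51.8 RPKM in the animal library. Its ratio was 3.32 (3.12 to 3.53), and the more than 3 times larger number of vegetal reads covered no more of it. ENSDART00000132644 (1078 nt) was covered over 60% in the vegetal library and 59% in the animal library, at 127 RPKM in the vegetal and 62.1 RPKM in the animal library. ENSDART00000136441 (593 nt) was covered over 64% in the vegetal library and 63% in the animal library, at 125 RPKM in the vegetal and 30.6 RPKM in the animal library. ENSDART00000151375 (3093 nt) was covered over 63% in the vegetal library and 55% in the animal library, at 369 RPKM in the vegetal and 94.8 RPKM in the animal library. In all, 8 members (5.56%) had under 80% coverage at both poles, near the 7.72% of the 1917 abundant transcripts. The RPKM of such transcripts is averaged over bases without reads and is lower than the level over the covered part.

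In other members the covered part differed between the poles, and these were singled out after their values were seen. Coverage was at least 10 percentage points higher in the vegetal library for 27 members (18.8%), beside 6.10% of all 1917 and 4.85% of the 1588 under 2-fold apart. Among those 1588, 26 had a gap of 10 points or more towards the animal library and 77 towards the vegetal library. Of the 35 transcripts 8 times or more higher in the vegetal library, 10 (28.6%) had such a gap. Of the 127 transcripts 2 to 8 times higher in the animal library, 8 had coverage at least 10 points higher there, and 3 (2.36%) had such a gap towards the vegetal library. The rule asked for more vegetal reads, so the members' share was not taken as independent of the choice. ENSDART00000009687 (1070 nt) was covered over 97% in the vegetal library by 3475 reads and over 68% in the animal library by 458 reads. Its RPKM was 184 in the vegetal library and 25.9 in the animal library, a ratio of 7.09 (6.43 to 7.84). ENSDART00000143461 had 92% coverage in the vegetal library and 69% in the animal library, ENSDART00000016890 (1144 nt) 97% in the vegetal library and 75% in the animal library, and ENSDART00000148208 (956 nt) 99% in the vegetal library and 77% in the animal library. In the opposite direction 1 member differed by 10 points or more. ENSDART00000045124 (716 nt) was covered over 79% in the vegetal library by 3144 reads and over 89% in the animal library by 1156 reads, so the library with more reads covered less of it.

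The other coverage value the authors deposited is labelled only as an average read depth. It was read here as a mean over the covered bases. On that reading the members had a median of 50.9 bases per read in the vegetal library and 51.0 in the animal library. The ratio of such depths does not count bases without reads. Up to rounding it restates the read ratio and the 2 coverages, so it is no second measure. Scaled to the library totals, the depth ratio of the members ran from 1.499 to 7.94 with a median of 2.71. It was below the read ratio for 109 of the 144, beside 107 with higher coverage in the vegetal library. It was at least 2 for 125 members and under 2 for 19. Of all 1917 abundant transcripts 8.40% had one of at least 2, a share that counts these members too. The rule had set the read ratio, so these counts follow largely from the choice. The 19 had read ratios up to 2.37, so they lay near the lower edge of the range. ENSDART00000143461 had a depth of 85 in the vegetal library and 53 in the animal library, a depth ratio of 1.499 against a read ratio of 2.01. ENSDART00000052529 (1022 nt) had a depth of 210 in the vegetal library and 120 in the animal library, with 80% coverage in the vegetal library and 60% in the animal library, and its depth ratio was 1.64 against a read ratio of 2.16. For ENSDART00000009687 the depth ratio was 4.97 against a read ratio of 7.09, and for ENSDART00000037750, covered in full at both poles, it was 6.59 against 6.57. The depth of gapdh was 99 in the vegetal library and 43 in the animal library, a depth ratio of 2.15. The deposited depths are rounded to 2 digits for most transcripts, and they come from the same reads.

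**Figure D5:**
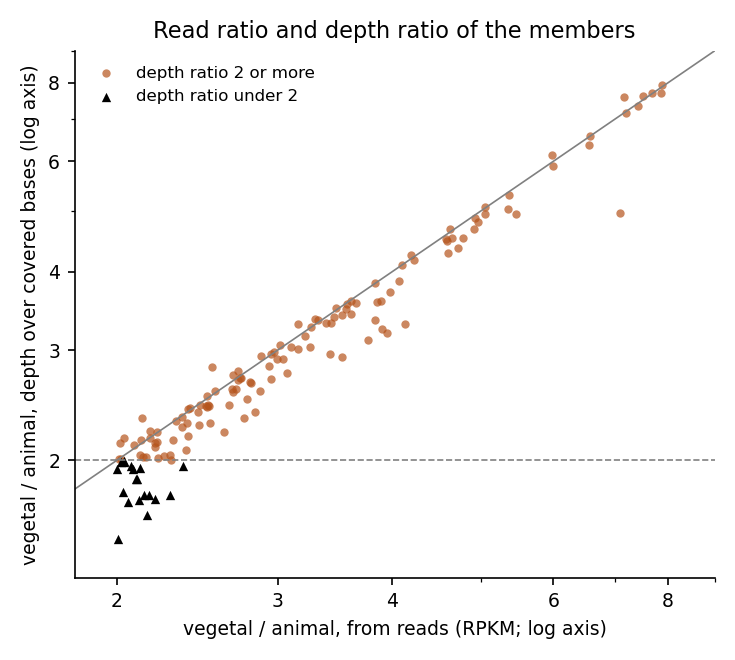
Ratio of vegetal over animal mean depth against the ratio from reads, on log axes, with 1 point per member. Depth was taken as a mean over covered bases and scaled to the library totals. Lines mark equal ratios and, dashed, a depth ratio of 2. The 19 triangles under the dashed line have read ratios of at most 2.37, and the point far under the line of equal ratios at a read ratio of 7.09 is ENSDART00000009687.

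The authors' deposited table of differences, restricted to an FDR under 0.05, listed 32 of the 144 members, or 22.2%, all as higher at the vegetal pole. They were 3.08% of the 1038 vegetal-higher transcripts in the authors' deposited table, and 3.50% of the 1917 abundant transcripts were listed there as vegetal-higher. The same reads chose the members and made that table, so nothing is read from these shares. The listing followed the size of the ratio: each of the 32 members with a read ratio of at least 4 was listed, down to ENSDART00000103220 at 4.07, and none of the 112 below, of which ENSDART00000073839 was the highest at 3.97. The log2 fold changes of the 32 in the authors' deposited table ran from 2.003 to 2.96. Neither pole had a replicate library, so the FDR behind that table could not rest on variation between replicates. Being listed is therefore not read as statistical support for the 32, nor being absent as evidence against the 112. gapdh and 4 of the 8 most abundant members, ENSDART00000010997, ENSDART00000114137, ENSDART00000013497 and ENSDART00000009790, were not in the authors' deposited table, at read ratios of 2.31 to 3.48.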

How the data were processed

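The authors deposited, for each transcript and library, a count of mapped reads, RPKM, the percentage of length covered, and the mean depth (a coverage signal), per the file headers. A second deposited table gives log2 fold changes, a log2 CPM average, p-values and FDR from edgeR, per the submitters' processing notes, which name build Zv9. The aligner, counter, use of strand and treatment of reads that match several transcripts are not given in the sources at hand, and values of near-identical copies are therefore uncertain. RPKM was recomputed from counts and each library's total; for the members it differed from the deposited RPKM by at most 0.0015%. Depth was 17685736 vegetal and 16533617 animal reads. Reads without molecular identifiers are not independent molecules, so intervals cover counting error only. The members and lists were chosen with earlier results of these data known. Transcripts named by rule were the 8 highest by mean RPKM, the 8 most counted, and the 6 largest and 4 smallest ratios. Those beside each limit, the 5 lowest in coverage, the 3 longest and 3 shortest, and those with a name were also named by rule. Others were chosen after their values were seen. The 16 members under 500 nt, the coverage gaps, and ENSDART00000103220 and ENSDART00000073839 beside the lowest listed ratio belong to the latter. Steps were tested on simulated data. Scaling factors came from edgeR 4.0.16 and DESeq2 1.42.0 (R 4.3.3); other steps used Python 3.11.15, scipy 1.17.1, numpy 2.4.6, matplotlib 3.10.9 and pandas 2.3.3.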

Additional observations from a re-analysis of the deposited data

How the results depend on the processing

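The number of members depends on the limits. It was 349 at a minimum of 32 RPKM and 85 at 100 RPKM, 306 with the lower ratio at 1.5 and 63 with it at 3. The deposited RPKM, pseudocounts of 1 and 5 RPKM, 3 other scalings, thinning of the vegetal reads and the depth ratio gave 129 to 151 members, beside 144. The sets were not identical: of the 144, the depth ratio kept 125, a pseudocount of 5 RPKM 132, median-of-ratios scaling 142 and the deposited RPKM 144. The depth ratio restates the read ratio and the coverages, so it is no independent check. The members' share of reads was 6.29% vegetal and 1.85% animal with the 10 most counted transcripts taken out of the library totals too. It was 5.22% and 1.61% of all reads without the most counted member, whose reads stayed in the totals. Among abundant transcripts of 3000 nt and over, the vegetal-higher share was 11.5% at 100 RPKM. In the authors' deposited table, 0 of the 32 members listed had an FDR under 0.001, and 12 had one under 0.01. Of 40 named transcripts with a ratio of at least 2, 8 had one below 2 under at least 1 of 5 pseudocounts or scalings; of the 200 values, 24 left their counting interval. The depth ratio, the share without 1 member and the length classes were tried after seeing the data. No paired analysis was possible because there is 1 library for each pole, so none could be left out either.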
